A study of Drosophila melanogaster with 2 samples.

Results

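Intergenic binding sites of Medea were mapped by chromatin immunoprecipitation followed by sequencing (ChIP-seq) in Drosophila melanogaster embryos. The sites are the 600 peaks, of 5867 reproducible peaks in all, whose summit lay more than 1000 bp from every protein-coding transcription start site (TSS) and inside no annotated gene of any kind other than a transposable element. They make up 10.2% of the list (Wilson 95% interval 9.48 to 11) and are called intergenic members here. Within that list the choice used positions only. The signal, the replicates, the identity of the neighbouring genes and the sequence of the members were not used to pick them. The deposited list had itself been thresholded, so signal and replicates bear on which peaks it holds. The rule was set with earlier results of these data known. The embryos came from 1 transgenic strain, Med-GFP, that stably expresses Med with GFP at its C terminus (the Med-eGFP fusion) from an insertion made to target Med. Whole embryos of both sexes aged 0 to 24 h were pooled, chromatin was sheared by sonication to 200 to 800 bp, and the antibody recognised GFP. The series holds a single group of 2 biological replicates, which the labels number 2 and 3, and per the deposited manifests both were called against the same control file. A peak in such material is a sum over all cells and stages of the collection, so a site used by few cells and a site bound weakly in many cannot be told apart. With 1 group and 2 samples no test between groups exists, and shares and medians are given beside those of the other peaks without a p-value, since peaks of 1 library are not replicates.

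Medea is the co-Smad of flies, the partner that all receptor-regulated Smads share. When the BMP ligand Dpp or an activin-type ligand reaches its receptors, the receptor kinases phosphorylate the Smads Mad or Smox, which join Medea, enter the nucleus and bind DNA at short GC-rich or GTCT-containing sequences. In the embryo Dpp patterns the dorsal side, and many genes that respond to it, like those that build the segments, are controlled by enhancers that lie far from the promoter, within introns or between genes.

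The sequence at the summit of the strongest members shows what the map holds at these places. Shown are the summit and the 50 bp to either side of it on the plus strand of the Release 6 assembly (dm6), 5′ to 3′, for the members ranked 1, 3, 5 and 6 by signal, with the central 11 bases at the summit in capitals. The first lies between mtSSB and tara at chr3R:16222447-16222547, the second between Cyt-c1L and eEF1gamma at chr3R:29214400-29214500, and the last pair between RFeSP and chinmo at chr2L:1638746-1638846 and chr2L:1632803-1632903.
mtSSB and tara: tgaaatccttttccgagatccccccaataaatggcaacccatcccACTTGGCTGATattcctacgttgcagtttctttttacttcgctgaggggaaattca
Cyt-c1L and eEF1gamma: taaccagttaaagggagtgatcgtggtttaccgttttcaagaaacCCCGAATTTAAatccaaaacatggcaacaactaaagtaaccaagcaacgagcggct
RFeSP and chinmo, first: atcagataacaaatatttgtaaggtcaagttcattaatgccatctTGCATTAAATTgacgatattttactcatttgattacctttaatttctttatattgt
RFeSP and chinmo, second: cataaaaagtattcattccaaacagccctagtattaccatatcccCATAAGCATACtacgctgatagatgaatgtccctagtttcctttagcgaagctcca

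A set of letters that recurred near the summits was TAGNTGNCG, which resembles the core of the binding motif of the insulator protein CTCF in flies. It was picked after short words of the member windows had been compared with flanking sequence and 33 sets of letters looked at, so its frequency in the members is a description of the windows that chose it. Of the strongest members that hold it 6 are printed with the core in capitals, on the strand that carries it, 32 bp each. The 9-base frame they share is what they were picked by, and the genes beside them are unlike. They lie between Glut3 and abd-A (chr3R:16798904-16798935, minus strand), soti and cv-c (chr3R:14391403-14391434, minus strand), Sox21a and Sox21b (chr3L:14111598-14111629, minus strand), Sid and snu (chr3R:28672410-28672441, minus strand), osp and CG15282 (chr2L:14706363-14706394, minus strand) and Esyt2 and REPTOR (chr3R:24557066-24557097, minus strand).
Glut3 and abd-A: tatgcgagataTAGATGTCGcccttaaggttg
soti and cv-c: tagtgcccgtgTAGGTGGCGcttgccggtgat
Sox21a and Sox21b: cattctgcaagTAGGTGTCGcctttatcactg
Sid and snu: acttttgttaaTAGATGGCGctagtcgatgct
osp and CG15282: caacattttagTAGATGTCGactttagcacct
Esyt2 and REPTOR: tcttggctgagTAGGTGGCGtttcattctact

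Another recurring set of letters was TCAGT, the first letters of the fly initiator, the element at which transcription starts. Transcription was not measured here, so whether these copies act as initiators was not tested. It was chosen after 10 sets of letters had been looked at by orientation. In 23 members a copy lay on each side of the summit at 40 to 110 bp, each pointing away from it, so that the left copy reads ACTGA on the plus strand. Of the strongest such members 4 are printed on the plus strand with the outward copies in capitals, because they show the arrangement whole. They lie between Atg13 and stck (chr3R:8355642-8355838), slp1 and slp2 (chr2L:3832426-3832594), noc and CG33648 (chr2L:14502700-14502843) and Chsy and sog (chrX:15599788-15599963).
Atg13 and stck: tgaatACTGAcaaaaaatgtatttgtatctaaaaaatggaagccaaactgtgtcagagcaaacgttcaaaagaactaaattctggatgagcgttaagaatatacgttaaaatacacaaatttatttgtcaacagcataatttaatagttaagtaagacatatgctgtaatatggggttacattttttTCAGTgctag
slp1 and slp2: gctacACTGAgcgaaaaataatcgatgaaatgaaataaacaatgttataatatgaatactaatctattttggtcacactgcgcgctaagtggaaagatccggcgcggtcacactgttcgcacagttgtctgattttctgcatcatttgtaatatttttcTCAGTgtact
noc and CG33648: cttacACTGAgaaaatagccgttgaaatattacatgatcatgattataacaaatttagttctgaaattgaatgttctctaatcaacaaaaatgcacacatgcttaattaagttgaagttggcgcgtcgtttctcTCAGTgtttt
Chsy and sog: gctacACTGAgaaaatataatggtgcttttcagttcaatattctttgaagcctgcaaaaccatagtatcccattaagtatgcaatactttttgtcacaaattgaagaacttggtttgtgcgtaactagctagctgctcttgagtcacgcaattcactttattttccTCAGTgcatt

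The signal of a peak is the value in the authors' deposited list, whose scale the labels do not state. The members had a median signal of 264.2 with quartiles of 198.7 and 395.9, against a median of 282.0 over all reproducible peaks. Peaks at promoters had a median of 295.8 and peaks inside protein-coding genes but away from promoters, called genic distal peaks here, had 260.5. The members thus lay near the genic distal peaks and below the promoter peaks, and the ranges between the quartiles of all 3 classes overlapped. The strongest member reached 3087, against 8099 for the strongest promoter peak and 6495 for the strongest genic distal peak. Of the members 28 (4.67%) had a signal of at least 1000, against 5.71% of all reproducible peaks. All 28 had a peak in the relaxed lists of both replicates, and 27 had a summit within 100 bp in the top lists of both, which are described further on. With the reproducible list split into 4 parts by signal, the members made up 8.32% of the strongest part and 10.4%, 9.68% and 12.5% of the following ones.

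The strongest member lay on 3R from 16222290 to 16222706, 3154 bp upstream of tara, which encodes a regulator related to the trithorax group. Replicate 2 gave it 1491 and replicate 3 gave it 1610, and it ranked 27 of all reproducible peaks. A second member in the same spacer, from 16224322 to 16224688 and 1137 bp from the TSS, had 517.3 in replicate 2 and 778.7 in replicate 3. Next came a member on 2R from 13035138 to 13035547 in the spacer between Su(z)2, a Polycomb group gene, and CG13323, with 1332 in replicate 2 and 1528 in replicate 3. It stood 27368 bp beyond the end of Su(z)2 and 9416 bp from that of CG13323. The member ranked 3, on 3R from 29214231 to 29214628, lay 5722 bp upstream of eEF1gamma, a translation elongation factor gene, and had 1020 in replicate 2 and 1719 in replicate 3. The member ranked 4, on 2R from 22802760 to 22803161, sat in a spacer of only 1340 bp between the ends of blw, which encodes the alpha subunit of ATP synthase, and CycB, the Cyclin B gene. It had 1228 in replicate 2 and 1401 in replicate 3. The nearest start of a non-coding gene was 898 bp from the member ranked 1 (lncRNA:CR45643) and 112 bp from that ranked 3 (lncRNA:CR31044). For the members ranked 2 and 4 it was 49912 and 46796 bp away. These 4 members lay at unlike distances from genes, and in replicate 2 a single other member, near chinmo, was above one of them.

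That site, on 2L from 1638540 to 1639025, had 1074 in replicate 2 and 833.7 in replicate 3. It lay 12462 bp upstream of chinmo, the gene of a BTB zinc finger protein that sets the temporal identity of neurons. The spacer of 37097 bp between RFeSP and chinmo held 9 members, the most of any spacer, with signals from 191.3 to 1904, and 8 of the 9 were in the top lists of both replicates. The other strong site there, from 1632657 to 1633004, had 742.6 in replicate 2 and 902.4 in replicate 3. The remaining members among the 12 strongest were spread over 5 arms. A member on 3R from 8355558 to 8355911, 1230 bp upstream of stck, an adaptor gene of integrin adhesion, had 607.3 and 863.4 in replicates 2 and 3. On chromosome 4 the strongest member, from 424664 to 424956, lay between dati, a zinc finger gene, and lgs, which encodes a coactivator of Wingless signalling, and had 578.9 and 823.6. The strongest on X, from 5696353 to 5696716, lay between CG3149 and AdamTS-B, a secreted metalloprotease gene, and had 622.4 and 762.5. It was 604 bp from the start of the non-coding gene lncRNA:CR42794. A member on 3R from 12402980 to 12403306 sat in a spacer of 437 bp between the ends of Sol1 and Cyp9f2 and had 530.0 and 776.6. On 2L, between the segmentation genes slp1 and slp2, a member from 3832339 to 3832666 had 660.9 and 639.0. On 3L the strongest, from 11418238 to 11418481, had 602.8 and 704.3 and lay 6815 bp upstream of CG7560. A neighbouring member 200 bp away has the same replicate values, as the strongest overlapping replicate peak gave the value. These values are thus not separate measures of the 2 summits. Replicate 3 had a top-list summit within 100 bp of each. Replicate 2 had no top-list summit within 100 bp of the stronger summit, which made it the single member above 1000 that was not in both top lists.

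**Figure D1:**
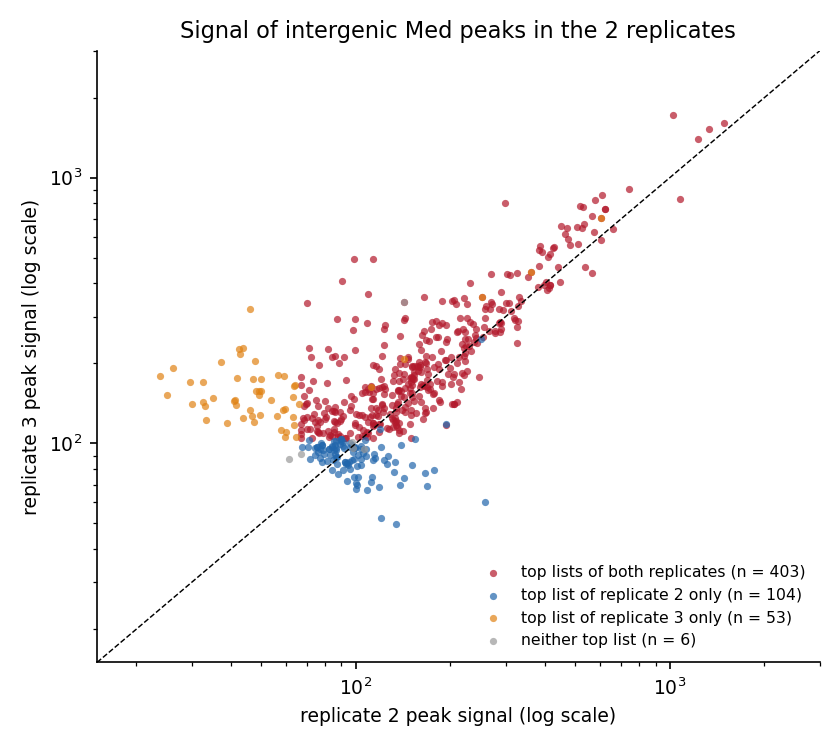
Signal of the 566 intergenic members that overlapped a relaxed peak in both replicates, replicate 2 on the horizontal and replicate 3 on the vertical axis, both on log scales, with the line of equal signal dashed. Colours give the top list that held a summit within 100 bp. The strong members of both top lists lie mostly above the line, many near it and some far from it. An example of the latter had 98.4 in replicate 2 and 493.0 in replicate 3. Members of 1 top list only lie at the low end of the other replicate's signal. Exceptions are a few whose summits lay farther than 100 bp apart.

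A larger share of the members was found in replicate 2 than in replicate 3, and at promoters the order was the other way round. The top list of a replicate is its strongest 5867 peaks, as many as the reproducible list holds, whose weakest peak had 66.1 in replicate 2 and 104.4 in replicate 3. Of the members 524 (87.3%, 84.4 to 89.8) had a summit of the replicate 2 top list within 100 bp, against 80.9% of all reproducible summits. In replicate 3 the number was 467 (77.8%, 74.3 to 81.0), against 85% of all reproducible summits. Promoter peaks gave 78.9% in replicate 2 and 87.9% in replicate 3, and genic distal peaks 83.0% and 81.0%. Both top lists held 403 members (67.2%), against 67.4% of all reproducible summits, so the share found in both was near that of the whole list. Of the rest, 121 members (20.2%, against 13.4% of all reproducible peaks) were in the top list of replicate 2 alone, 64 (10.7%, against 17.6%) in that of replicate 3 alone and 12 in neither.

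Signal in the replicates showed the same difference between the classes. For the 566 members with a relaxed peak in both, the signal of replicate 3 over that of replicate 2 was 0.24 in the median on the log2 scale (SD 0.66), against 0.36 at promoters, 0.30 at genic distal peaks and 0.33 over all reproducible peaks. The lists can differ in scale, so only the difference of the medians is comparable: members minus all reproducible peaks was -0.09 on the log2 scale, and -0.02 when the list was limited to its stronger 2933 peaks. The classes also differed in base composition, though not in the same order. The windows of 50 bp to either side of member summits had a mean GC content of 36.8% (SD 8.84), against 40.5% (SD 9.69) at promoters and 35.8% (SD 8.56) at genic distal peaks, whose ratio lay between those of the members and the promoters, and the part of GC content in the difference between replicates was not tested. Members called from 1 replicate alone had a mean of 35.0% in replicate 2 and 38.4% in replicate 3. Across the members Spearman's rho between the replicate signals was 0.64, a description over sites that share 2 libraries and a control. The members called from the top list of replicate 2 alone by the same rule numbered 712, and from that of replicate 3 alone 515. Of the 600 members 86.7% had a counterpart among the 712 and 77.5% among the 515, and 73.0% of the 712 and 90.3% of the 515 had a counterpart among the members.

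A few members rested on 1 replicate. No relaxed peak of replicate 3 overlapped 22 members (3.67%, against 1.40% of all reproducible peaks), and none of replicate 2 overlapped 12 (2%, against 3.95%). The strongest of the second kind, on 2R from 7478648 to 7478898 between Aldh-III and wech, had 448.2 in replicate 3, and the next, on 2L from 12010062 to 12010437 between Rh5 and Wdr81, had 234.8 there. The strongest of the first kind, on 2L from 14094696 to 14094942 between nAChRalpha5 and CG46301, had 194.9 in replicate 2, and the next, on 2R from 2567017 to 2567198 between MFS17 and CG41378, had 162.1 there.

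**Figure D2:**
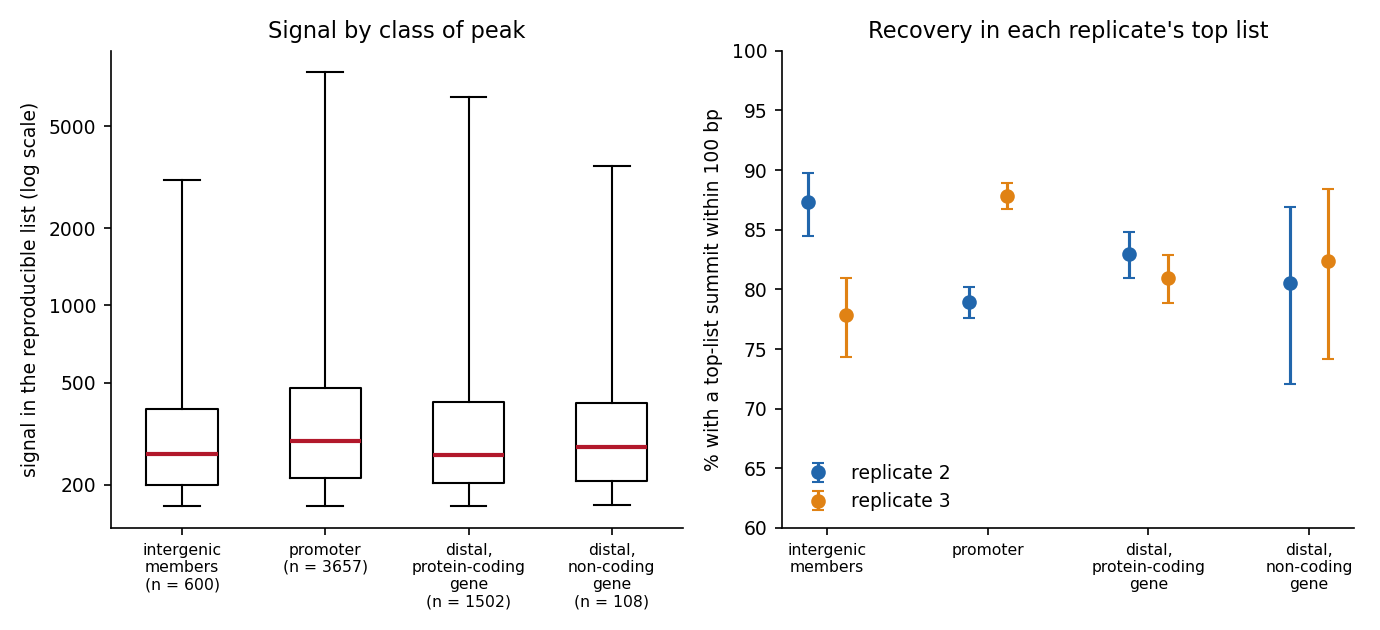
Left, signal in the reproducible list for 4 classes of peak on a log scale, with boxes from the lower to the upper quartile, the median in red and whiskers to the lowest and highest peak. Right, the share of each class with a summit of a replicate's top list within 100 bp, with Wilson 95% intervals; members stand at 87.3% in replicate 2 and 77.8% in replicate 3, promoters at 78.9% and 87.9%.

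The members lay closer to protein-coding TSSs than the bases that the rule left. The rule leaves 35.2 Mb, or 26.3% of the 6 arms, called eligible sequence here, where a summit would count as a member. Those bases were not screened for undetermined bases or for how well reads can be placed. The part of this in the comparisons with eligible sequence was not tested. The median distance of the members to the nearest protein-coding TSS was 4791 bp, against 9499 bp over eligible bases. Per eligible Mb there were 35.4 members at 1000 to 2000 bp from a TSS, 25.1 at 2000 to 5000 bp, 17.9 at 5000 to 10000 bp, 18.9 at 10000 to 20000 bp and 6.84 at 20000 to 50000 bp. Beyond 50000 bp lay 1 member, in 15.4% of the eligible sequence. That member, on 3R from 10494211 to 10494423, was 59527 bp from the TSS of Cyp12e1 and 13245 bp beyond the end of hth, the gene of a Hox cofactor, and had 193.1 in replicate 2 and 240.1 in replicate 3. The next farthest were a neighbouring pair on X in the spacer of CG6414 and CG43689, at 39692 and 39033 bp from a TSS, and a member on 3L between the paralogues bab1 and bab2, at 37703 bp. Spearman's rho of signal and this distance was -0.07 over the 600 sites, which share 2 libraries.

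The members just past the distance limit were on 2L, 1002 bp from a TSS of CG9498 (552.4) and 1002 bp from one of ex (340.7), and the nearest gene-free summits inside it were on 2R, 964 bp from CG7881 (210.8), and on X, 949 bp from prage (174.8).

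The spacers themselves showed where the members sat. Of the members 170 (28.3%, 24.9 to 32.1) lay in divergent spacers, where both neighbouring genes point away, against 22.4% of eligible bases, 141 (23.5%) in convergent ones, against 22.9%, and 289 (48.2%) in tandem ones, against 49.4%. Within 1000 bp of the 3′ end of a neighbouring gene lay 116 members (19.3%, 16.4 to 22.7), against 7.12% of eligible bases. Within 1000 bp of the start of a non-coding gene lay 71 (11.8%, 9.49 to 14.7), against 4.39%, and for 59 of these the gene was annotated as ncRNA, for 4 as tRNA. The rule removed summits within 1000 bp of protein-coding starts, but barred non-coding genes by their spans only. These 71 are thus members that lay outside non-coding genes but near another kind of start. Annotated transposable elements held 2 members (0.333%), against 11.1% of eligible bases. How well reads can be placed in such repeats was not tested. The spacers that held a member had a median length over members of 17560 bp, against 29758 bp over eligible bases.

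Density differed between the arms. Arm 2L held 143 members or 22.0 per eligible Mb (exact Poisson 95% interval 18.5 to 25.9), 3L 155 or 17.6 (14.9 to 20.6), 3R 120 or 16.4 (13.6 to 19.6), X 79 or 15.5 (12.3 to 19.3) and 2R 97 or 13.5 (10.9 to 16.4). Arms 2L and 2R were the pair of large arms whose intervals did not overlap, and their order was the same in each replicate, with 25.6 against 15 per Mb in replicate 2 and 18.7 against 11.4 in replicate 3. Chromosome 4 held 6 members, too few to place its density of 26.1 per Mb (9.57 to 56.8). The density on X was 0.895 times that of the autosomes together, 0.976 in replicate 2 alone and 0.898 in replicate 3 alone. It was 1.02 times with a limit of 500 bp from a TSS and 1.03 times among the stronger 2933 peaks, so its side of 1 depended on the choice. Intervals on shares and densities cover counting error of peaks only, and the depth of the libraries is unknown. Both replicates were divided by the same eligible sequence, so the order they share is not independent of it. How much of that sequence on each arm is repeats or undetermined bases was not tested.

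**Figure D3:**
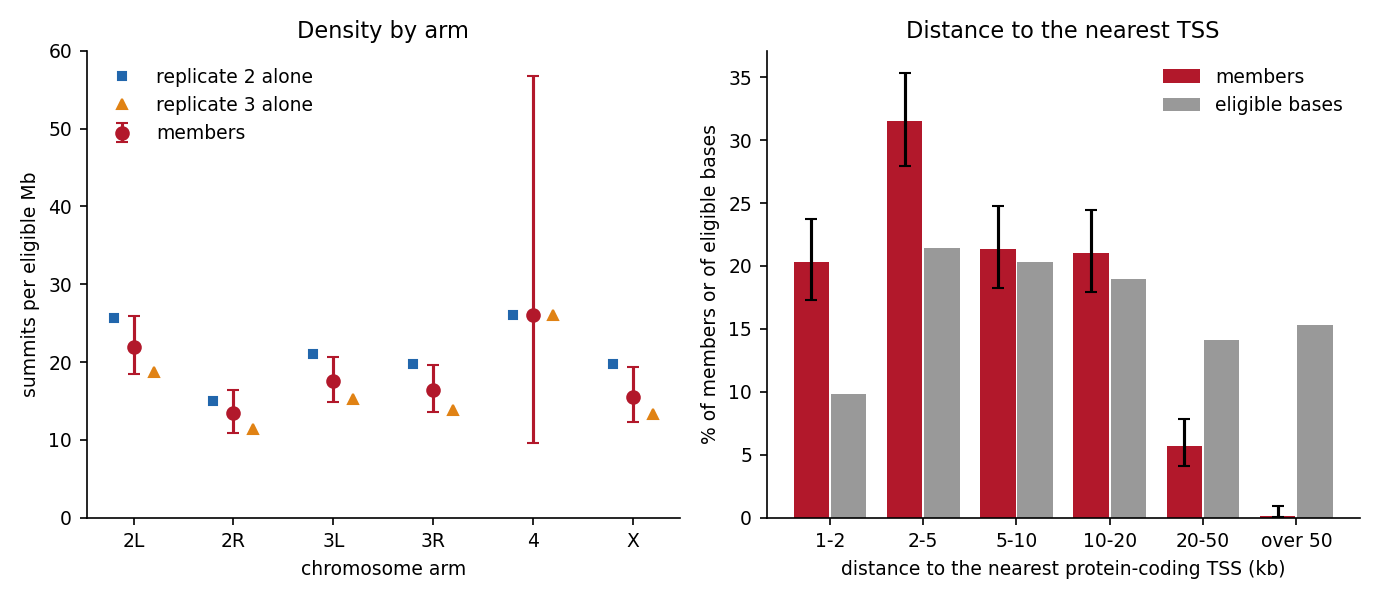
Left, members per eligible Mb on each arm with exact Poisson 95% intervals, beside the same count from each replicate's top list alone. Right, members and eligible bases by distance to the nearest protein-coding TSS, as shares of each, with Wilson 95% intervals on the members; 20.3% of members against 9.79% of eligible bases lay at 1 to 2 kb, and 0.167% against 15.4% beyond 50 kb.

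Some members stood in groups, but a smaller share had a near summit than in the whole list. Another reproducible summit of any class lay within 5000 bp of 287 of the 600 members (47.8%), against 59.8% of all reproducible summits. Another member summit lay within that distance of 193 (32.2%), and of 25.8% among the stronger 2933 peaks. The 600 members fell into 402 spacers, of which 104 held more than 1, and those 104 spacers held 302 members. The most members within 10000 bp numbered 6, on 2L from 12004318 to 12012355 around Rh5, a rhodopsin gene, with signals from 182.4 to 658.5. Only 1 of those 6, on the side of Wdr81 from 12012220 to 12012482, was in the top lists of both replicates, with 231.6 in replicate 2 and 401.9 in replicate 3. Another of them, from 12011105 to 12011428, had 257.3 in replicate 2 and 60.5 in replicate 3, the lowest ratio of all members. After the spacer of chinmo, the spacers with the most members were that between CG44362 and CG7560 on 3L and that between NijA and CG43245 on 3L, with 8 each. The spacer between hry, the pair-rule gene hairy, and SrpRbeta on 3L held 7, with signals from 166.1 to 422.7. Around the Polycomb group genes Psc and Su(z)2 on 2R the spacer of CG13321 and Psc held 4 members, which included 2 summits of 1 peak from 12958038 to 12958401. The 22 members with another within 400 bp count such double summits, and 589 members were left when the weaker summit was not counted.

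In all, 747 protein-coding genes (5.36% of 13945) bordered the spacer of a member and are called flanking genes. Of them 212 (28.4%) also had a reproducible summit within 1000 bp of a TSS, against 31.3% of all protein-coding genes. The share with a promoter peak was thus near that of all genes. The known developmental genes were described in 9 lists with 183 genes, of which 46 (25.1%, 19.4 to 31.9) flanked a member. Listed genes had longer spacers on their 2 sides in sum, with a median of 9637 bp, against 2589 bp over all protein-coding genes, and the part of spacer length in these shares was not tested. Nothing particular to the lists is drawn from the counts.

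**Figure D4:**
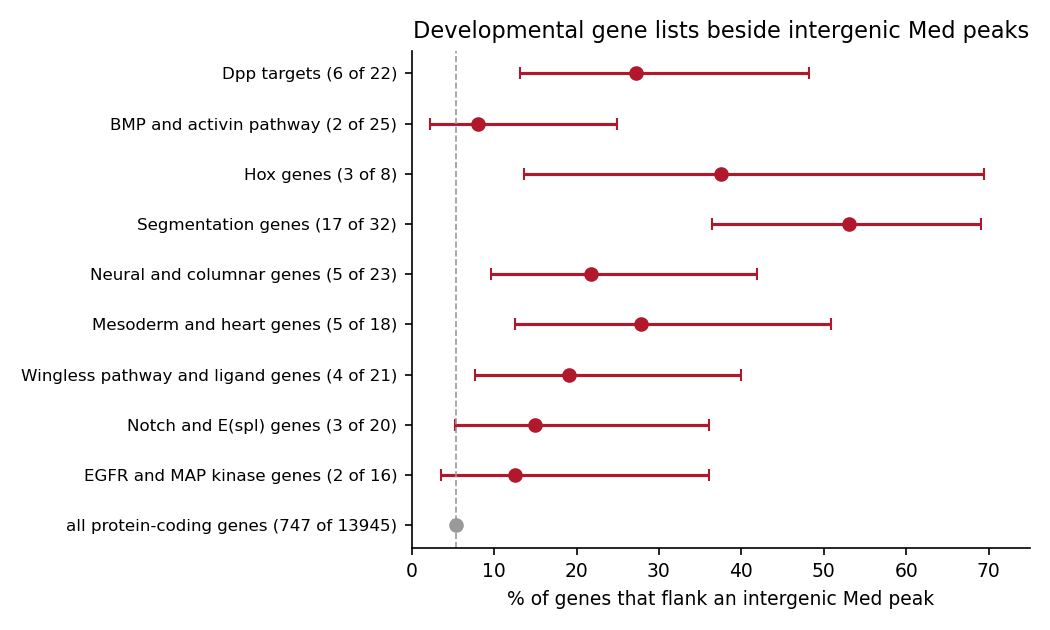
Share of the genes of each developmental list that flank an intergenic member, with Wilson 95% intervals and the number of genes in brackets. The dashed line marks the 5.36% of all protein-coding genes; segmentation genes stand at 53.1% and BMP and activin pathway genes at 8%.

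The genes of the pathway that Medea serves flanked a member at a share near that of all genes. Among 25 genes of ligands, receptors, Smads and extracellular regulators of the BMP and activin pathways 2 did (8%, 2.22 to 25), next to 5.36% of all protein-coding genes, and they had a median of 1668 bp of flanking spacer. The gene of the nearest TSS, or the stronger 2933 peaks, left 1 of the 25 (4%) each. Without replicate 3 the share was 12%, and without replicate 2 it was 8%. The ligand gene dpp had a member on 2L from 2426592 to 2426711, 1752 bp from its span, with 149.5 in replicate 2 and 104.5 in replicate 3. The gene sog, whose product binds Dpp outside the cell, had a member on X from 15599763 to 15600003, 3387 bp from its span in the spacer shared with Chsy, with 269.2 in replicate 2 and 341.3 in replicate 3. A weaker member of the same spacer, from 15594574 to 15594744, had 71.3 and 87.3.

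Of 22 Dpp target genes 6 flanked a member (27.3%, 13.2 to 48.2), and these genes had a median of 8565 bp of flanking spacer. The Dorsocross genes, T-box genes needed for the amnioserosa, had the most. Between Doc2 and Doc1 on 3L the strongest member, from 9025741 to 9026023, lay 6680 bp from Doc2 and had 290.2 in replicate 2 and 284.7 in replicate 3. That spacer held 4 members, all in the top lists of both replicates. A member beyond Doc1, from 9045379 to 9045592 and 449 bp from its span, had 182.3 and 251.7, though the nearest TSS there was that of Argk2. The LIM-homeodomain gene tup had a member on 2L from 18890164 to 18890385, 8994 bp away, with 221.4 in replicate 2 and 214.1 in replicate 3. Near C15, a homeobox gene, a member on 3R from 21487864 to 21488090 had 159.1 and 235.6, at 12003 bp from C15 and nearer to the TSS of Fancm. The member beside the zinc finger gene salm had 111.6 in replicate 2 and no relaxed peak in replicate 3, and that beside cv-2, a BMP-binding protein gene, had 134.4 in replicate 3 and none in replicate 2.

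Segmentation genes flanked members most often of the lists, with 17 of 32 (53.1%, 36.4 to 69.1), against 5.36% of all protein-coding genes. They had 33788 bp of flanking spacer in the median, against 2589 bp over all protein-coding genes. Besides the member between slp1 and slp2, the strongest lay near ems, a homeobox gene of the head, on 3R from 13914794 to 13915039, with 225.3 in replicate 2 and 334.6 in replicate 3. It was 10352 bp from the span of ems. Near drm, a zinc finger gene, a member on 2L from 3574042 to 3574272 had 277.3 and 260.6, but CG43815 had the nearest TSS, at 2030 bp. At oc, the head gap gene orthodenticle, a member on X from 8627273 to 8627503 had 242.2 and 250.1. The members beside wg, the Wingless ligand gene, included 1 on 2L from 7281522 to 7281762 that was nearer to Wnt4, with 222.6 and 247.7. The strongest beside hry, on 3L from 8700715 to 8700965, lay 21549 bp from its span and had 246.1 in replicate 2 and 177.8 in replicate 3. With the gene of the nearest TSS counted in place of both neighbours, 13 of the 32 (40.6%) remained, and 28.1% flanked a member among the stronger 2933 peaks.

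The remaining lists are read beside the same 5.36% of all protein-coding genes. Of 8 Hox genes, whose flanking spacer had a median of 26071 bp, 3 flanked a member (37.5%, 13.7 to 69.4). By the gene of the nearest TSS, and likewise among the stronger 2933 peaks, the Hox share was 12.5%. The strongest of their members, on 3R from 16798702 to 16799056, lay 8338 bp beyond abd-A. It had 563.9 in replicate 2 and 713.9 in replicate 3 and is the first of the members printed with the CTCF-type core. Scr and Dfd shared a member on 3R from 6818704 to 6818839 with 113.7 and 155.0. Of 23 neural genes 5 flanked a member (21.7%, with 13466 bp of flanking spacer, and 13.0% by the nearest TSS), led by Dr, a columnar homeobox gene, with a member on 3R from 29567065 to 29567290 (223.9 in replicate 2 and 233.0 in replicate 3). The neuroblast gene SoxN followed with a member on 2L from 8845998 to 8846195 that was uneven between the replicates, at 99.4 and 293.9. Of 18 mesoderm and heart genes 5 did (27.8%, with 11197 bp, and 16.7% among the stronger 2933 peaks), led by the T-box genes mid, with a member on 2L from 5476716 to 5476960 (235.5 and 282.2), and H15, with one from 5425479 to 5425643 (161.2 and 224.8). The visceral mesoderm gene bin had a member 1488 bp away on 3L (151.4 and 193.8). The FGF genes pyr and ths shared a spacer on 2R whose stronger member, from 11738626 to 11738793, had 130.5 and 124.8. Of 21 Wingless pathway genes 4 did (19.0%, with 4783 bp of flanking spacer). Of 20 Notch genes 3 did (15%, with 5006 bp), and the share was 5% by the nearest TSS and 25% without replicate 3. Of 16 EGFR genes 2 did (12.5%, with 14271 bp), and 6.25% by the nearest TSS. In the Enhancer of split complex a member on 3R from 26008946 to 26009243, between mbeta and malpha, had 379.0 in replicate 2 and 386.1 in replicate 3. The strongest beside an EGFR gene, on 3L from 3394904 to 3395246 near sty, the inhibitor sprouty, had 537.5 and 460.3, and that beside aop, a repressor downstream of the receptor, had 301.4 and 338.1 at 1470 bp from its TSS.

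Letters of Smad sites were no more frequent at the summits than beside them. GCCGNCG, the GC-rich site of Mad, occurred on either strand in 7 member windows, each 50 bp to either side of the summit (1.17%, 0.566 to 2.39), against 3.67% of windows 500 bp to either side, 2.72% of eligible windows of that length, 1.86% at genic distal peaks and 3.04% at promoters. The core GTCT occurred in 168 (28%, 24.6 to 31.7), against 35.6% of the flanking windows and 38.1% of eligible windows. The palindrome GTCTAGAC and the spaced Smad element that joins a GC-rich stretch to GTCTG occurred in 0 members, for which the Wilson interval reaches up to 0.636%, and 3 counts of the 600 would be 0.5%. The windows were poorer in G and C than their flanks, at 36.8% against 41.6%, and the part of that difference in these counts was not tested. The site CAGGTAG of the early pioneer factor Zelda occurred in 5 members (0.833%), against 0.5% of flanks, and GAGAGAG of the GAGA factor in 8 (1.33%), against 1.67%. The letters CGATA, shared by the motifs of BEAF-32 and DREF, occurred in 79 (13.2%, 10.7 to 16.1), against 10% of flanks and 26.8% at promoters. TATAAAA was present in 49 (8.17%, 6.23 to 10.6), against 4.33% of flanks, and TAATTA in 28 (4.67%), against 7.17%.

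The core TAGNTGNCG occurred in 30 members (5%), against 0.417% of flanking windows, 0.553% of eligible windows, 1.66% at genic distal peaks and 1.75% at promoters. The shorter AGNTGNCG occurred in 7.33% of members, against 3% of flanks, and AGNTGGCGC in 3.67%, against 0.25%. The letters AGGGGG, the spelling of a CTCF core in the list drawn up first, occurred in 15 members (2.50%), against 5% of flanks. Brinker-type letters, GGCGCCA, occurred in 24 members (4%), against 1.17% of flanks, and in 10 of the 24 they overlapped the core TAGNTGNCG. Members with the core had a median signal of 160.3 in replicate 2 and 218.4 in replicate 3, against 122.3 and 151.4 for members without it. With the members split into 4 groups of 150 by signal, the core stood in 13, 9, 5 and 3 of them, strongest group first. Both top lists held 90% of the members with the core, against 66.0% of those without. Their GC content was higher too, with a median of 45% against 35.6%, and its part in the difference was not tested. Within 50 bp of the member summits there were 40 occurrences of the core, where its rate in eligible sequence gives 3.62.

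Copies of TCAGT that point away from the summit were concentrated at 50 to 100 bp from it. In that range the members had 147 copies pointing away, or 24.5 per 100 peaks, against 58 pointing towards the summit, or 9.67, and the rate in eligible sequence gives 8.81. Nearer than 50 bp the numbers were 82 away and 62 towards, and beyond 200 bp both lay between 6.17 and 8.33 per 100 peaks. Genic distal peaks showed the same arrangement at 50 to 100 bp, with 19.1 away and 9.52 towards per 100 peaks, and promoters had 12.3 and 9.24. At 40 to 110 bp at least 1 copy pointing away stood in 151 members (25.2%, 21.9 to 28.8), against 22.3% (20.3 to 24.5) of genic distal peaks, so the intervals of these classes overlapped. A copy pointing towards the summit stood in 68 members (11.3%, 9.04 to 14.1). Members with copies on both sides numbered 23 (3.83%) for the outward and 2 (0.333%) for the inward direction. Genic distal peaks with copies on both sides numbered 36 (2.40%) and 4 (0.266%). Of the 23 members 0 held the core TAGNTGNCG, beside 5% of all members, a share too small to compare in 23. The median signal was 267.1 for members with an outward copy and 263.7 for the others.

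**Figure D5:**
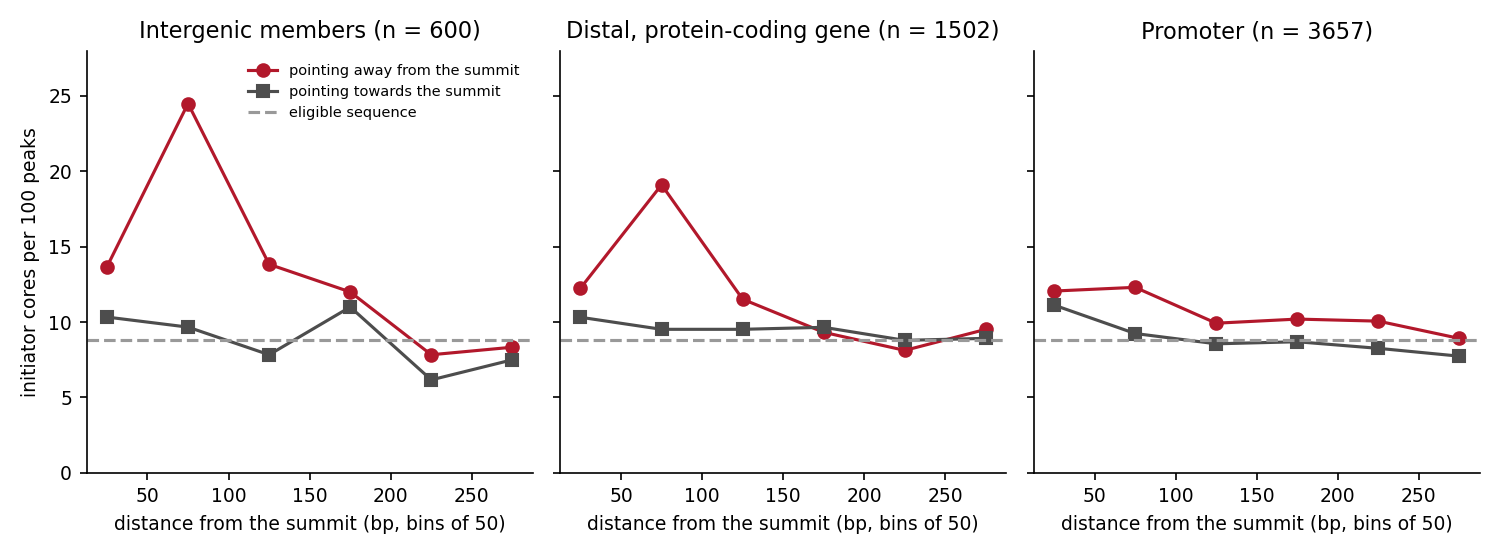
Copies of TCAGT, labelled initiator cores, per 100 peaks by distance from the summit in bins of 50 bp. Copies that point away from the summit and copies that point towards it are drawn for intergenic members, genic distal peaks and promoter peaks. The rate in eligible sequence is dashed. Members reach 24.5 per 100 peaks away from the summit at 50 to 100 bp, genic distal peaks 19.1 and promoters 12.3.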

How the data were processed

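Peaks of replicates 2 and 3 were used in build dm6, with the deposited list of optimal IDR thresholded peaks. IDR is the irreproducible discovery rate, and the peaks of that list are called reproducible peaks. How the list was drawn from the replicates was not stated. No relaxed peak of replicate 2 overlapped 232 of its 5867 peaks, and none of replicate 3 overlapped 82. The signal of each peak is the authors' deposited value. Aligner, peak caller, threshold and the unit of the signal were not stated in the labels or the deposited manifests. Each replicate list held 30000 peaks. Genes came from Ensembl BDGP6.54, release 115, and sequence from RefSeq's Release 6 assembly, on 6 arms, counted from 1. Where several relaxed peaks of a replicate overlapped a reproducible peak, the strongest gave its replicate signal. Spacers run between protein-coding gene spans. Motifs were searched on both strands, beside flanks at 500 bp and windows tiled over eligible sequence. Members, lists and motifs were chosen with earlier results of these data known. TAGNTGNCG and TCAGT, with its range of 40 to 110 bp, were picked from these windows. In the gene lists 3 symbols were replaced by those of the annotation and a duplicate was removed after members near genes had been seen. Regions named were the 12 strongest, the strongest per arm, the strongest beside listed genes, the farthest from a TSS, the densest group, those at the distance limit and those of 1 replicate. Others named beside them were chosen after their values were seen. The counting was tested on planted sites. Python 3.11.15, numpy 2.4.6, pandas 2.3.3, scipy 1.17.1 and matplotlib 3.10.9 were used.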

Additional observations from a re-analysis of the deposited data

How the results depend on the processing

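No paired analysis was possible because the samples form 1 group and no groups were compared. Among the main results 69 values under an alternative stayed within a set limit and 35 moved, and among single motifs and lists 63 stayed and 32 moved. The limit was a fixed fold for counts and the main Wilson interval for shares. Motif shares minus flanks also took it from that interval. Other values took the SD between the lists without replicate 2 and without replicate 3. These limits are unlike: 726 members beside 600 stayed, and 4752 bp beside 4791 bp moved. A limit of 500, 2000 or 5000 bp from a TSS gave shares of 12.4%, 8.15% and 4.93% of the list, median distances of 3651, 6533 and 10727 bp, and ratios of X to autosome density of 1.02, 0.811 and 0.749. The limit itself fixes the first 2 of these. At 5000 bp 289 members and 334 flanking genes were left. The log2 difference between replicates, members minus all peaks, was -0.057 at 500 bp and -0.12 at 5000 bp. With TSSs of every gene type, the share was 9.02%, the distance 4977 bp and the log2 difference -0.11, and with transposable elements also barred the distance was 4752 bp. The stronger 2933 peaks gave 275 members (9.38%), 97.8% in each top list and 95.6% in both, a log2 difference of -0.017, a distance of 4314 bp, 406 flanking genes, a density ratio of 1.03 and 25.8% with another member within 5000 bp. Summits matched within 50 bp gave 80.5% in replicate 2 and 59.3% in both. Without replicate 2 or 3, the share ranged from 8.78% to 12.1%, the distance from 4895 to 4940 bp, the density ratio from 0.898 to 0.976 and the share with a nearby member from 34.8% to 36.1%. The alternatives of merged summits, both-list peaks and shorter or longer core letters were chosen after seeing the data; the ratio of median signal to that of all peaks was 0.904 with both-list peaks, beside 0.937. Where construction does not fix a change, the cause was not tested. Library depth is unknown, so no share or density has an error beyond the counting of peaks, and no statement on absence of binding can be made.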
